A study of Mus musculus with 20 samples.

Results

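Hearts of Ts1Rhr mouse embryos were compared with hearts of their wild-type (WT) littermates to describe how expression outside the duplicated segment differed once the mitochondrial read share of each library was taken into account. The libraries were chosen by their genotype label, which gave 5 Ts1Rhr hearts and 5 WT hearts, 10 of the 20 libraries of the series. Ts1Rhr carries the duplication Dp(16Cbr1-Fam3b)1Rhr, an extra tandem copy of part of mouse chromosome 16 that is orthologous to a part of human chromosome 21, so the animals model a portion of the gene dosage of Down syndrome. The mutants carried the segment in 3 copies in every cell, their littermates carried it in 2, and all embryos were on the C57BL/6J background and were taken at embryonic day (E) 13.5. The rest of the series was Dp3Tyb, with a longer duplication that contains this segment, and its own littermates. The study describes Ts1Rhr embryos as free of congenital heart defects, but per the labels Ts1Rhr replicates 1 and 2 had heart defects, while for replicates 3 to 5 they state that there were none.

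An extra copy of a chromosome segment raises the template number of each gene in it, and transcripts usually rise with it. Genes elsewhere keep their copy number. The segment contains Dyrk1a, a protein kinase that phosphorylates cyclin D and subunits of the DREAM repressor complex and so acts on entry into the cell cycle. Mid-gestation hearts grow by division of cardiomyocytes, and the genes for DNA replication and mitosis in them are driven by E2F factors in S phase and by FOXM1 and MYB later in the cycle.

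Libraries held between 9.50 and 19.6 M reads (M, mega), with 14.7 ± 3.23 M in WT and 16.7 ± 2.14 M in Ts1Rhr (SD, n = 5 each), a difference within the spread (exact permutation test, 2-sided, p = 0.302). Judged by Xist transcripts, there were 3 female and 2 male hearts per genotype. Values are normalised reads, that is whole reads divided by a library factor. After a filter that asked for 10 or more in 5 or more of these hearts, 14852 of 48795 listed genes were left, and 14831 of these lie outside the segment. Each embryo gave 1 library, and the labels do not say from how many litters the embryos came.

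Transcripts encoded by the mitochondrial genome took 11.8%, 10.5%, 7.17%, 17.2% and 5.84% of the reads in WT replicates 1 to 5, and 11.6%, 13.1%, 5.50%, 6.12% and 5.86% in Ts1Rhr replicates 1 to 5. The share was over 10% in 3 WT hearts and in 2 Ts1Rhr hearts, and the groups overlapped, with WT replicate 4 above every other heart. The mean was 10.5% ± 4.47 in WT and 8.45% ± 3.64 in Ts1Rhr, and the difference of -2.06 percentage points was within the spread (exact permutation test over 252 splits, 2-sided, p = 0.50). The 2 Ts1Rhr hearts over 10% are the same 2 whose labels name heart defects, so within this genotype the share and the label cannot be told apart.

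The share followed the main axis of variation among the hearts. The first principal component held 35.5% of the variance of the 14852 genes and placed WT replicate 4, with the highest share, at one end and Ts1Rhr replicate 3, with the lowest, at the other. The second component held 21.1% and set Ts1Rhr replicates 1 and 3 apart from the other 8 hearts. These 2 hearts were also the ones without transcripts of lung and foregut epithelium: 8 defining markers, among them Nkx2-1, Foxa2 and Shh, summed to 7.19 and 8.88 normalised reads in them, against 223 to 516 in the other 3 Ts1Rhr hearts and 194 to 639 in the WT hearts. Lung buds lie beside the heart at this stage. Of the 8 markers 3 were at 0 in replicate 1 and 6 were at 0 in replicate 3.

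**Figure D1:**
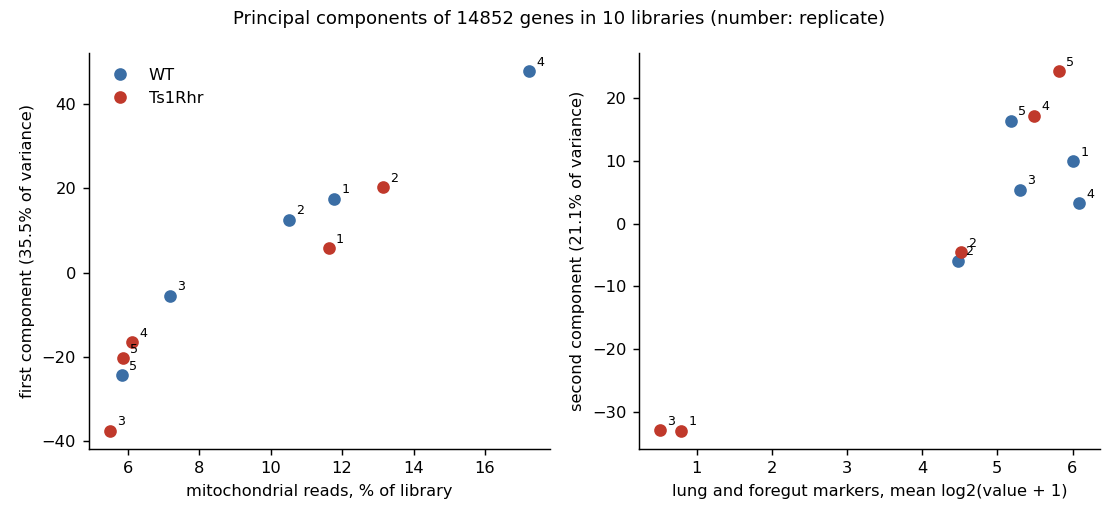
Principal components of 10 heart libraries. Left, the first component (35.5% of variance) against the mitochondrial read share in percent; right, the second component (21.1%) against the mean log2(value + 1) of 8 lung and foregut markers. Each point is 1 library with its replicate number, WT in blue and Ts1Rhr in red. The first component rises from low to high mitochondrial share in both genotypes, and Ts1Rhr replicates 1 and 3 lie alone at the lower left of the right panel.

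The mitochondrial share was carried as a term beside genotype in the limma model of log2(value + 1). It took up a large part of the variation: 5632 genes (37.9% of those tested) had an adjusted p-value under 0.05 for the share itself, 2789 rising and 2843 falling with it. WT replicate 4, with the highest share, also had the fewest reads (9.50 M). With read depth added to the model the count was 2582. Among the rising genes the smallest p-values belonged to Nexn, a Z-disc protein that binds F-actin, the chromatin-associated protein Sltm, the CCR4-NOT ubiquitin ligase Cnot4 and the calcium-binding protein S100a11, and to Atp6-ps, a pseudogene copy of a mitochondrial gene whose reads cannot be told apart from those of its source with certainty. Nexn stood at 12835, 11918, 8264, 22826 and 7479 normalised reads in WT replicates 1 to 5 and at 13725, 14037, 6372, 6972 and 6506 in the Ts1Rhr replicates. It was high in the same 5 hearts that had a high share, whatever the genotype, and its slope was 0.15 ± 0.0068 log2 units per percentage point (SE; limma, adjusted p = 1.52e-08). Among the falling genes the smallest p-values belonged to Rps14, a protein of the small ribosomal subunit, the lysosomal lipid transporter Spns1, the Rab acceptor Rabac1, the GPI transamidase subunit Gpaa1 and the peroxisomal import receptor Pex5. Rps14 had a slope of -0.13 ± 0.0081 (limma, adjusted p = 1.88e-07). The transcripts of the nuclear-encoded respiratory chain did not rise with the mitochondrially encoded ones as a group, since 16 of 80 rose and 33 fell, against 18.8% and 19.1% of all genes tested. The genotypes were not seen to differ in these slopes: no gene passed the test for a different slope in limma, and 468 (3.15%) had an unadjusted p under 0.05.

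The genes in 3 copies were examined first, since they check the labels. Of the 31 protein-coding genes of the segment, which span chr16:93683219-97504936 (GRCm38.p6, RefSeq positions of 30 of them), 21 passed the filter and 20 of these were higher in Ts1Rhr, while the other 10 fell below it. With the mitochondrial term 16 passed the test, all of them higher, against 25 of 14852 genes (0.168%) in all. The median log2 fold change was 0.51, that of all genes outside the segment was -0.0034, and for 12 of the 21 all mutant values exceeded all WT values. Because these genes differ in copy number, the counts describe the dosage and not a response to it.

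Dyrk1a (chr16:94569947-94695519, GRCm38.p6) was at 2014, 1996, 1740, 2339 and 1837 normalised reads in the WT hearts and at 2759, 2720, 2413, 2551 and 2435 in the Ts1Rhr hearts. All mutant values were above all WT values. The log2 fold change was 0.44 ± 0.04 (SE, 1.36-fold; limma, adjusted p = 2.65e-04). The other called genes ran from 0.36 for Ttc3, a ubiquitin ligase, to 0.76 for Bace2, a protease related to beta-secretase, and included the chromatin proteins Hmgn1 (0.54), Brwd1 (0.44), Chaf1b (0.48) and Morc3 (0.56), the transcription factor Ets2 (0.48), biotin-attaching Hlcs (0.53), the trafficking proteins Vps26c (0.69) and Dop1b (0.46), the tail-anchor insertion factor Get1 (0.57), the GPI-synthesis subunit Pigp (0.51), the proteasome chaperone Psmg1 (0.47), Sh3bgr (0.58) and the potassium channel Kcnj15 (0.69).

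Not past the threshold were the endothelial factor Erg (log2 fold change 0.35 ± 0.07, limma adjusted p = 0.0544), Lca5l (0.56 ± 0.18), which overlaps Get1 on the other strand so that reads could be shared, Ripply3 (0.51 ± 0.17), Pcp4 (0.14 ± 0.38) and Sim2 (-1.14 ± 0.99). Sim2, a transcription factor, stood at 29.2, 15.2, 26.9, 44.0 and 47.7 in WT and at 1.2, 24.4, 5.33, 51.5 and 50.4 in Ts1Rhr. It was low in replicates 1 and 3, the 2 Ts1Rhr hearts without lung and foregut markers, and its other Ts1Rhr values lay within or above the WT range.

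Outside the segment 9 of 14831 genes passed the test (0.0607%). The 5 that fell (0.0337%) were Rfx5, Rec8, Ahnak, Mxd4 and Hap1, and the 4 that rose (0.027%) were Entpd1, Clec4g, Mal and Zfp268. They lie on 8 chromosomes other than 16, and the changes ran from a decrease of 35.0% for Rec8 to a 2.22-fold increase for Clec4g. At an unadjusted p under 0.05 there were 1099 genes (7.41%), 557 higher and 542 lower. The quasi-likelihood test of edgeR on the recovered reads, with the same term, called the same 9 genes and no others outside the segment, and DESeq2 called 26, the same 9 among them.

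**Figure D2:**
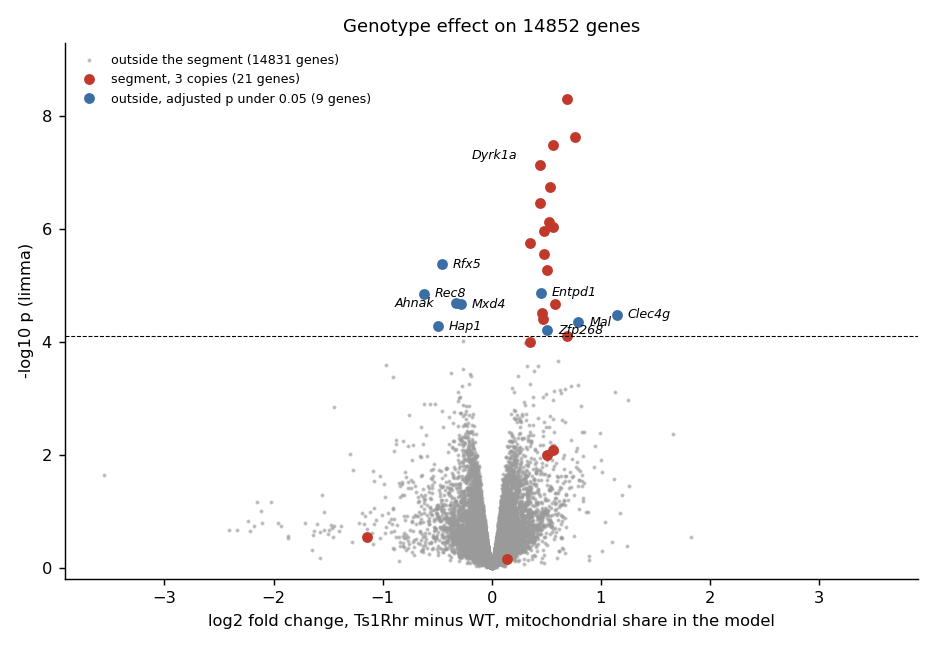
Genotype effect on 14852 genes. The x axis is the log2 fold change, Ts1Rhr minus WT, with the mitochondrial share in the model, the y axis is -log10 of the limma p-value, and the dashed line marks the largest p among genes with an adjusted p under 0.05. The 21 tested genes of the segment (red) lie mostly near 0.5 and hold the smallest p-values; the 9 genes called outside it (blue, named) lie on both sides of 0.

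Rfx5 (chr3:94950689-94961561, GRCm38.p6), a subunit of the RFX complex that drives MHC class II genes, had the smallest p-value outside the segment. It was at 507, 474, 428, 614 and 437 normalised reads in WT and at 345, 405, 296, 296 and 335 in Ts1Rhr. The highest mutant value was below the lowest WT value, and the log2 fold change was -0.46 ± 0.06 (limma, adjusted p = 0.0052). Rec8 (chr14:55618002-55625395), a cohesin subunit best known from meiosis, was at 189, 179, 192, 170 and 201 in WT and at 126, 104, 155, 119 and 125 in Ts1Rhr, again with no overlap (-0.62 ± 0.10, adjusted p = 0.0137). In both genes the mutant hearts formed a group of their own.

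The other 3 genes that fell overlapped between the groups as measured and were separated by the mitochondrial term. Ahnak (chr19:8989284-9076935), a giant scaffold protein beneath the plasma membrane, was at 3372, 3618, 3962, 2752 and 3944 in WT and at 2859, 2637, 2858, 3100 and 3303 in Ts1Rhr. The WT heart with 17.2% mitochondrial reads had the lowest WT value, and Ahnak fell with the share in general (slope -0.04 ± 0.0071 log2 units per percentage point). Its log2 fold change at equal share was -0.33 ± 0.05 (limma, adjusted p = 0.0176). Mxd4 (chr5:34176580-34187710), a partner of MAX that opposes MYC, was at 1031, 1020, 1163, 817 and 1207 in WT and at 799, 805, 1040, 986 and 976 in Ts1Rhr, with the low values in both groups among the hearts of high share (-0.28 ± 0.05, adjusted p = 0.0176). Hap1 (chr11:100347327-100356982), a huntingtin-binding protein of vesicle transport, was at 225, 222, 241, 180 and 291 in WT and at 158, 132, 233, 192 and 193 in Ts1Rhr and followed the same order (-0.49 ± 0.09, adjusted p = 0.0342).

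Of the genes that rose, Entpd1 (chr19:40612366-40741602) encodes CD39, the surface enzyme that hydrolyses extracellular ATP and ADP. It was at 367, 462, 400, 412 and 431 in WT and at 622, 560, 544, 558 and 543 in Ts1Rhr. Every mutant heart was above every WT heart, its slope on the mitochondrial share was 0.0025 ± 0.0094, and the log2 fold change was 0.46 ± 0.07 (limma, adjusted p = 0.0137). Clec4g (chr8:3707066-3720695), a C-type lectin of sinusoidal endothelium, was at 18.4, 20.6, 24.2, 26.8 and 18.6 in WT and at 55.1, 38.1, 60.4, 45.5 and 46.8 in Ts1Rhr, with no overlap (1.15 ± 0.20, adjusted p = 0.0245). Mal (chr2:127633226-127656695), a proteolipid of membrane rafts and myelin, was at 52.9, 42.3, 48.4, 42.1 and 62.3 in WT and at 82.6, 94.7, 83.5, 85.0 and 97.2 in Ts1Rhr (0.80 ± 0.14, adjusted p = 0.0298). Both were lowly expressed genes, and in both every mutant value exceeded every WT value.

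Zfp268, a zinc finger gene on chromosome 4 from a family of similar genes between which reads can be misassigned, was the one of the 9 whose fold change moved most with the mitochondrial term. It was at 322, 335, 232, 484 and 233 in WT and at 498, 587, 239, 324 and 327 in Ts1Rhr, and the groups overlapped over most of their range. It rose with the share (slope 0.11 ± 0.012), and at equal share the log2 fold change was 0.51 ± 0.09 (limma, adjusted p = 0.0380). Without the term it was 0.28 (adjusted p = 0.796).

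**Figure D3:**
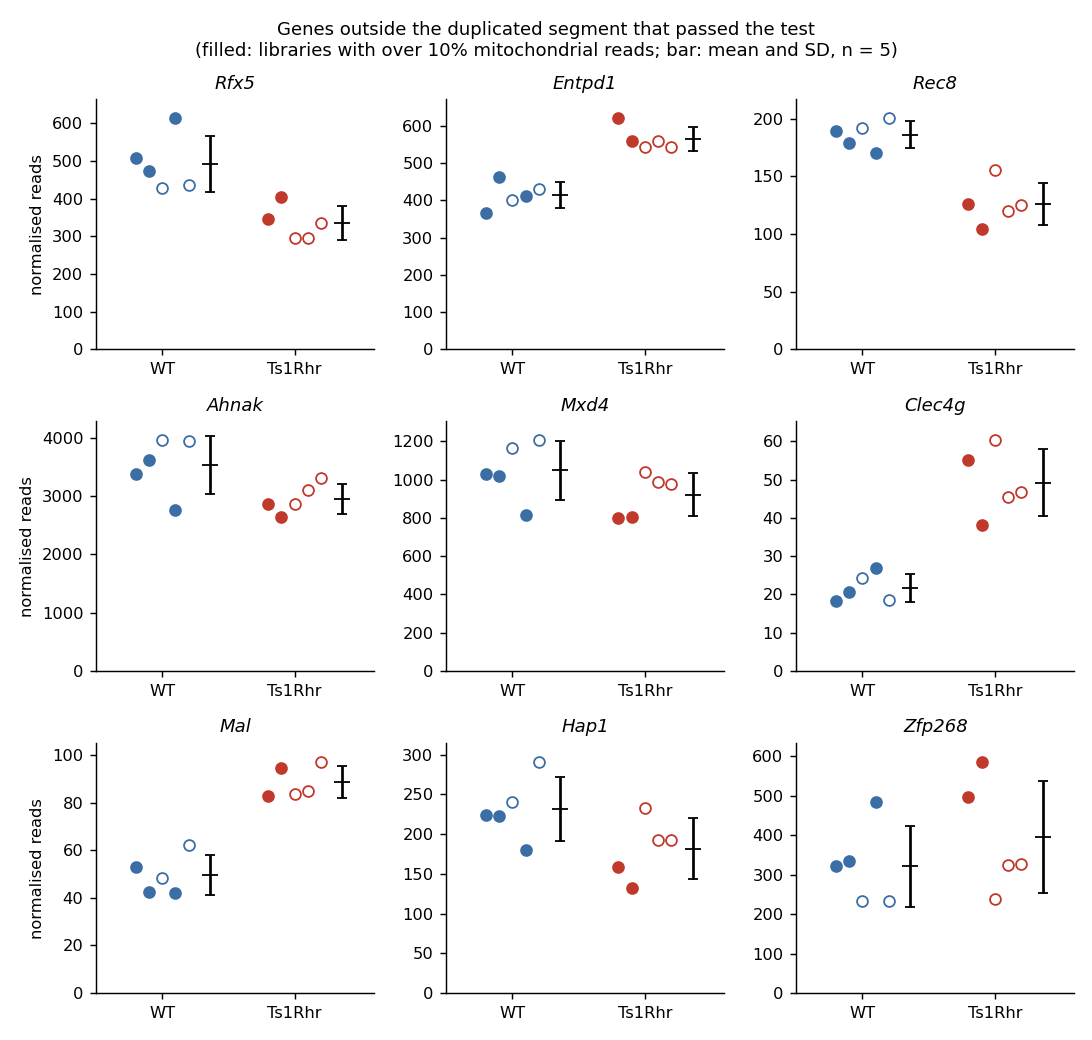
Normalised reads of the 9 genes called outside the duplicated segment, in each library. The y axes start at 0; points are libraries (WT blue, Ts1Rhr red, filled where over 10% of reads were mitochondrial) and bars give the mean and SD of 5. The groups do not overlap for Rfx5, Entpd1, Rec8, Clec4g and Mal, while for Mxd4, Hap1 and Zfp268 filled and open points separate within each group, and for Ahnak nearly so.

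There was no overlap between the groups in 5 of the 9, against 154 of all 14831 genes outside the segment (1.04%). The same test chose the 9, so this is a description. Within the 5 libraries under 10% mitochondrial reads (2 WT and 3 Ts1Rhr hearts) and within the 5 over 10% (3 WT and 2 Ts1Rhr hearts), the difference of group means on the log2 scale had the same sign for all 9. For Rfx5 it was -0.49 and -0.50, for Rec8 -0.56 and -0.64, for Entpd1 0.40 and 0.52, for Clec4g 1.21 and 1.05 and for Mal 0.68 and 0.94. Without the mitochondrial term limma called none of the genes outside the segment (806 had an unadjusted p under 0.05), edgeR called 0 and DESeq2 called 14, of which 5 are among the 9. Only Rfx5 passed the test in each of the 10 fits that left out 1 library (limma, adjusted p from 0.0033 to 0.0380). Entpd1 missed the threshold in 3 of these fits, Rec8 in 4, Ahnak in 6, Mxd4, Clec4g and Mal in 8 each and Hap1 and Zfp268 in 9 each, with the highest adjusted p between 0.0951 for Entpd1 and 0.312 for Zfp268, and no gene turned its direction. The count outside the segment was 3 without WT replicate 1 or 2, 1 without WT replicate 3, 6 without WT replicate 4 or 5, 3 and 2 without Ts1Rhr replicates 1 and 2, 10 without Ts1Rhr replicate 3 and 4 without Ts1Rhr replicate 4 or 5. Without both Ts1Rhr hearts with named defects, 3 mutants against 5 WT hearts, limma called 0 genes outside the segment and 4 inside it. The fold changes of the 9 kept their direction there, with Rfx5 at -0.45 and Entpd1 at 0.39.

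With the level of lung and foregut markers added to the model, 8 of the 9 still passed the test and Clec4g did not (log2 fold change 1.02, limma adjusted p = 0.115). The mean log2 marker level was 0.79 and 0.51 in Ts1Rhr replicates 1 and 3, and between 4.47 and 6.09 in the other hearts. This term therefore cannot be told apart from other traits of those 2 hearts.

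The largest differences by size, among genes outside the segment with an unadjusted p under 0.001, included 8 genes besides Clec4g and Mal, none of which passed adjustment (limma, adjusted p from 0.125 to 0.225). One of them, Rpl39-ps1, is a pseudogene of a ribosomal protein gene (-0.97 ± 0.20), so that reads could be shared with its parent. Ky, a protein of muscle fibre maintenance that is mutated in the kyphoscoliosis mouse, was at 112, 81.4, 100.3, 105 and 180 in WT and at 70.7, 68.3, 52.4, 49.0 and 60.7 in Ts1Rhr. All 5 mutant values were below all WT values (log2 fold change -0.90 ± 0.20, limma adjusted p = 0.160). Ache, which hydrolyses acetylcholine, was at 131, 164, 156, 115 and 108 in WT and at 184, 195, 285, 223 and 186 in Ts1Rhr (0.62 ± 0.14). The others were the lubricin gene Prg4 (1.13 ± 0.27), the vasoactive peptide gene Uts2b (0.79 ± 0.18), which lies on chromosome 16 outside the segment (chr16:27353322-27370239, GRCm38.p6), the cytidine deaminase Cda (0.73 ± 0.17), the membrane ubiquitin ligase Marchf3 (0.67 ± 0.16) and the alcohol dehydrogenase Adh6b (0.63 ± 0.15), one of a family of similar genes. In 8 of all 10 genes chosen by size the groups were fully apart, against 1.04% of all genes outside the segment, but a choice by size and p favours such genes and the count is a description.

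Genes of cell division lay slightly and broadly lower in Ts1Rhr. Of 50 genes for DNA replication and S phase 49 had a log2 fold change below 0, with a median of -0.12, where 51.4% of all genes outside the segment were below 0 with a median of -0.0034. At an unadjusted p under 0.05 there were 16 lower and none higher, against 3.65% lower and 3.76% higher of all genes. None passed adjustment in limma or edgeR, and DESeq2 called Prim1. These are small differences spread over genes that vary together from heart to heart, so the count of genes is not a count of independent observations. The summed level of the list was 46899, 50253, 48458, 44904 and 45217 normalised reads in WT and 43035, 44720, 46578, 43110 and 42005 in Ts1Rhr, so that only replicate 3 of the mutants lay within the WT range.

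Prim1, the catalytic subunit of DNA primase, had the smallest p-value of the list. It was at 677, 652, 549, 716 and 586 in WT and at 558, 568, 452, 483 and 463 in Ts1Rhr, with 2 mutant values just above the lowest WT value (log2 fold change -0.26 ± 0.06; limma, adjusted p = 0.137). Its partner Prim2 was at -0.24 ± 0.08, the ribonucleotide reductase subunit Rrm2 at -0.20 ± 0.06, the dUTPase Dut at -0.22 ± 0.07, the sliding clamp Pcna at -0.15 ± 0.04 and the replication initiation factors Cdt1 and Mcm10 at -0.20 ± 0.08 and -0.17 ± 0.06. The 1 member above 0 was E2f2 (0.01 ± 0.11).

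The promoters of such genes are known for E2F sites, and 3 are shown here as the list members with the smallest p-values in which an E2F word was found within 250 bases before the start. They come from RefSeq on GRCm38.p6, run 5′ to 3′ on the strand of the gene, and carry the word in capitals. The words searched, on both strands, were TTTCCCGC, TTTCGCGC, TTTGCCGC and TTTGGCGC.
Mcm7, helicase subunit, chr5:138171884-138172133, minus strand: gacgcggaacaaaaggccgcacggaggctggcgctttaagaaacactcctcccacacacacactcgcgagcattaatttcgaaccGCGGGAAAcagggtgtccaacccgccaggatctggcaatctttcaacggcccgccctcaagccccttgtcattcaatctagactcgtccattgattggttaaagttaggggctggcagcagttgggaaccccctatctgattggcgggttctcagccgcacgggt
Pola1, polymerase alpha subunit, chrX:93632156-93632405, minus strand: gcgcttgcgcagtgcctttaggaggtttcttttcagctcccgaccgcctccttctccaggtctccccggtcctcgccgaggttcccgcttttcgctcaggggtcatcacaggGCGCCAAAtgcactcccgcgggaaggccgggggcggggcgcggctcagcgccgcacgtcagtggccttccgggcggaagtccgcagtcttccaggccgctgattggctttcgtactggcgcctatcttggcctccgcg
Uhrf1, replication-coupled methylation factor, chr17:56304063-56304312, plus strand: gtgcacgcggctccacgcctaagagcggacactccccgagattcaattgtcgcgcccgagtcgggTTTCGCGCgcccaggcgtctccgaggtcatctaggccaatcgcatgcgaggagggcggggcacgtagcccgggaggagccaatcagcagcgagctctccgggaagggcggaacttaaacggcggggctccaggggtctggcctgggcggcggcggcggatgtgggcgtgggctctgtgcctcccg
Mcm7 had a log2 fold change of -0.14 ± 0.05, Pola1 of -0.18 ± 0.08 and Uhrf1 of -0.11 ± 0.05, none past the threshold.

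A word was present in 10 of the 39 list members with a promoter in the table and in 1 of the 33 such members of the mitosis list, against 1.86% of all 32851 promoters and 3.87% of those of tested genes. Among the 10862 tested genes with a promoter outside the segment, the 420 with a word had a median log2 fold change of -0.02 and 58.8% of them were below 0, against -0.0012 and 50.5% of those without. A word is a match of letters and not a measured binding site.

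Mitotic genes also lay mostly below 0. Of 40 genes for spindle, kinetochore and cytokinesis 37 were below 0 (median -0.08), 9 of them with an unadjusted p under 0.05, against 51.4% and 3.65% of all genes, and none passed adjustment in limma, edgeR or DESeq2. Without the mitochondrial term the median was -0.13, beside -0.11 for the replication list, and with 1 library left out it ran from -0.05 without WT replicate 2 to -0.13 without WT replicate 5. The summed level was 73906, 78918, 72170, 78597 and 60574 normalised reads in WT and 69494, 73825, 61982, 61511 and 56391 in Ts1Rhr, which overlap widely, and within each genotype every heart under 10% mitochondrial reads lay below every heart over 10%. Top2a, the topoisomerase that untangles sister chromatids, was at -0.18 ± 0.06, the checkpoint kinase Bub1 at -0.17 ± 0.05, the kinetochore protein Nuf2 at -0.19 ± 0.06 and cyclin A2 (Ccna2) at -0.14 ± 0.06. Securin (Pttg1, 0.13 ± 0.10), Cdc25c (0.09 ± 0.09) and Kif23 (0.02 ± 0.07) were the members above 0.

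Regulators of the G1 phase lay on both sides of 0. Of 14 tested, 8 were below it (median -0.03), against 51.4% of all genes outside the segment. At an unadjusted p under 0.05 there were 3, all lower, against 3.65% lower of all genes. These were the inhibitors Cdkn1b (p27, -0.26 ± 0.07) and Cdkn2c (p18, -0.39 ± 0.11), both of which restrain division, and the pocket protein Rbl1 (p107, -0.19 ± 0.06). None passed adjustment in limma, edgeR or DESeq2. The D cyclins were close to 0, with Ccnd1 at -0.07 ± 0.07, Ccnd2 at 0.04 ± 0.06 and Ccnd3 at 0.11 ± 0.06.

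Among 13 tested histone genes, most of whose transcripts lack poly(A) tails and are poorly sampled by poly(A) selection, 10 were below 0 (median -0.22). The median was -0.13 without WT replicate 5 and -0.10 without the hearts with named defects. At an unadjusted p under 0.05 there were 3 lower and 1 higher, against 3.65% and 3.76% of all genes. The linker histone H1f0, which is polyadenylated and made outside S phase, was at 3848, 3783, 3693, 3654 and 4254 in WT and at 3096, 3374, 3261, 3231 and 3261 in Ts1Rhr. The groups did not overlap, and the gene narrowly missed the threshold (-0.26 ± 0.05; limma, adjusted p = 0.0544), while DESeq2 called it.

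**Figure D4:**
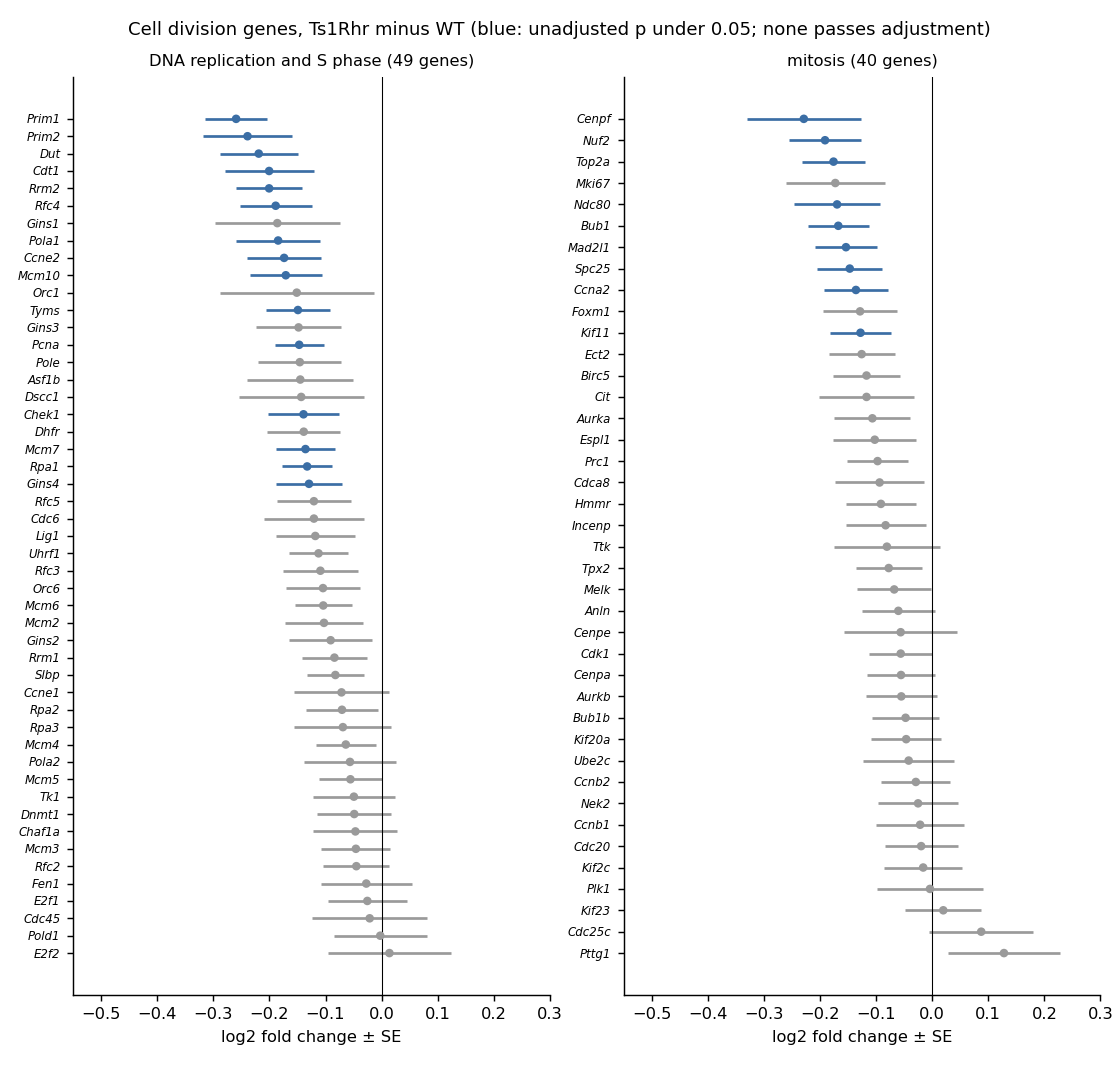
Log2 fold change (Ts1Rhr minus WT, mitochondrial share in the model) with its standard error for each gene for DNA replication and S phase (left, 49 of the 50 genes) and mitosis (right, 40 genes), sorted. Blue marks an unadjusted p under 0.05. All but 1 gene on the left and 3 on the right lie below 0, none passes adjustment in limma, and most differences are smaller than 0.2 in size.

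Genes of several non-muscle cell types mostly lay higher in Ts1Rhr, again by small amounts. In whole hearts a larger number of cells of a type and more RNA per cell cannot be told apart. Of 22 macrophage genes 19 were above 0 (median 0.18, where 48.6% of all genes were above 0). There were 6 higher and none lower at an unadjusted p under 0.05, against 3.76% higher of all genes. None passed adjustment in limma, edgeR or DESeq2. Lysozyme (Lyz2) was at 343, 369, 322, 316 and 376 in WT and at 432, 536, 666, 448 and 376 in Ts1Rhr, with the lowest mutant value level with the highest WT value (0.47 ± 0.14). The summed level of the list was 2681 to 3228 in WT and 2826 to 4078 in Ts1Rhr, where replicate 1 was the low one. With 1 library left out 18 to 20 of the 22 were above 0, and the median ran from 0.11 without Ts1Rhr replicate 2 to 0.30 without Ts1Rhr replicate 1. The coagulation factor gene F13a1 was at 0.33 ± 0.10, the mannose receptor Mrc1 at 0.26 ± 0.10 and the complement gene C1qa at 0.34 ± 0.15.

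Of 43 genes of extracellular matrix and mesenchyme 37 were above 0 (median 0.07) and 10 had an unadjusted p under 0.05, all higher, against 48.6% and 3.76% of all genes. With 1 library left out 28 (without Ts1Rhr replicate 5) to 40 (without Ts1Rhr replicate 1 or 3) were above 0, with medians from 0.04 to 0.10, and with lung marker level in the model 39 were (median 0.16). Itgav, the integrin alpha V chain that binds fibronectin and vitronectin, was at 2060, 2186, 2169, 2031 and 1766 in WT and at 2487, 2586, 2505, 2350 and 2548 in Ts1Rhr. It did not overlap between the groups and lay just outside the threshold (0.31 ± 0.06; limma, adjusted p = 0.0544), while DESeq2 called it. The collagen-degrading protease Ctsk was at 0.30 ± 0.09, the metalloproteinase inhibitor Timp1 at 0.35 ± 0.11 and the gelatinase Mmp2 at 0.17 ± 0.06. Endothelial genes were above 0 in 21 of 25 cases (median 0.09, and 0.02 with lung marker level in the model), with the clotting carrier Vwf at 0.28 ± 0.08 and the adrenomedullin co-receptor Ramp2 at 0.21 ± 0.07. Genes of valve mesenchyme were above 0 in 12 of 16 cases (median 0.15), with the hyaluronan synthase Has2 at 0.41 ± 0.15. That shift varied with the setting. Without the mitochondrial term 9 of the 16 were above 0 (median 0.02), and DESeq2 on genotype alone gave 8. Among the hearts over 10% mitochondrial reads 8 were above 0, and among those under 10% 11 were (median 0.18). Without the hearts with named defects 12 were above 0 (median 0.20). The median of the summed level of this list was 17684 in Ts1Rhr and 18098 in WT. No gene of these last 2 lists was called by limma, edgeR or DESeq2, and 5 and 3 of their genes had an unadjusted p under 0.05.

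Interferon-response and antigen-presentation genes were above 0 in 33 of 42 cases (median 0.13, and 0.07 without Ts1Rhr replicate 2), against 48.6% of all genes. At an unadjusted p under 0.05 there were 6 higher and 1 lower, against 3.76% and 3.65% of all genes. The summed level of the list did not differ in its range, with 8475 to 10624 in WT (median 9352) and 8872 to 10619 in Ts1Rhr (median 9345). The 1 gene of the list past the threshold, Rfx5, fell. The class I gene H2-D1, one of a family of near-identical genes, was at 166, 154, 209, 147 and 233 in WT and at 235, 208, 314, 257 and 257 in Ts1Rhr (0.38 ± 0.09; limma, adjusted p = 0.250). Lgals3bp was at 0.47 ± 0.14, the antiviral proteins Ifi44, Ifit3 and Ifitm3 at 1.13 ± 0.45, 0.71 ± 0.31 and 0.39 ± 0.16, and Ifi44 and Ifit3 averaged under 30 normalised reads in both groups.

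Genes of cardiomyocytes and of energy metabolism lay near 0 with the mitochondrial term alone, and most lay below 0 once the lung marker level was added. That level was low in Ts1Rhr replicates 1 and 3 alone, so it cannot be told apart from other traits of these hearts. Of 32 cardiomyocyte genes 19 were above 0 (median 0.01), with Ky, which DESeq2 called as lower, and the ryanodine receptor Ryr2 (-0.19 ± 0.08) as the 2 at an unadjusted p under 0.05. Of 80 nuclear-encoded subunits of the respiratory chain 52 were above 0 (median 0.02), and none had an unadjusted p under 0.05 or passed adjustment in limma, edgeR or DESeq2. Of 34 genes of the citric acid cycle and fatty acid oxidation 23 were above 0 (median 0.02). Of 30 genes of glycolysis and the hypoxia response 15 were above 0, and of 78 mitochondrial ribosomal proteins 38 were. Cytosolic ribosomal proteins were below 0 in 62 of 81 cases, with a median of -0.04 and none at an unadjusted p under 0.05, but in 36 without Ts1Rhr replicate 2 (median 0.0077) and in 29 without the hearts with named defects (median 0.02). With lung marker level added to the model, 77 of the 80 respiratory chain genes (median -0.07), 29 of the 32 cardiomyocyte genes (median -0.09), 30 of the 34 genes of the citric acid cycle and fatty acid oxidation and 24 of the 30 genes of glycolysis and hypoxia were below 0. Leaving out the hearts with few lung markers 1 at a time also turned the respiratory chain, to a median of -0.02 with 34 of 80 above 0 without Ts1Rhr replicate 1 and -0.02 with 23 of 80 without Ts1Rhr replicate 3, and the cardiomyocyte list, to 10 of 32 above 0 without either. Without both hearts with named defects 33 of the 80 respiratory chain genes and 23 of the 32 cardiomyocyte genes were below 0. No direction is therefore given for these lists.

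Of the 30 glycolysis and hypoxia genes 9 fell with the mitochondrial share past the threshold and none rose, against 19.1% and 18.8% of all genes.

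In the remaining lists no gene passed adjustment in limma or edgeR, and DESeq2 called Etv5 alone. Of all genes outside the segment 48.6% were above 0. Erythroid genes were above 0 in 17 of 19 cases (median 0.17) with standard errors as wide as 0.48 for the adult globin Hbb-bs, and none had an unadjusted p under 0.05. Their direction turned without the hearts with named defects, where 18 of the 19 were below 0 (median -0.29), and 10 were below 0 without Ts1Rhr replicate 2. With lung marker level in the model 10 were above 0 (median 0.03). Immediate early genes, which respond within minutes to stimuli and to tissue handling, were above 0 in 21 of 23 cases (median 0.12), with Klf4 at 0.19 ± 0.08 and Fos at 0.10 ± 0.16. Heat shock genes were above 0 in 11 of 12 cases (median 0.05), but in 7 without WT replicate 5 (median 0.01), in 6 without the mitochondrial term and in 6 among the hearts over 10% mitochondrial reads. Above 0 were also chaperones of the endoplasmic reticulum in 13 of 15 (median 0.08, and 0.02 without WT replicate 5). Cholesterol synthesis genes were above 0 in 19 of 24 cases (13 without WT replicate 5), with the reductase Hsd17b7 at 0.21 ± 0.07, and p53 targets in 10 of 17, with Ccng1 (cyclin G1) at 0.21 ± 0.06. Genes of the integrated stress response split 9 to 9. Of 11 genes of calcineurin and NFAT signalling 7 were above 0 (median 0.01), with Nfatc1, a factor of valve formation, at 0.12 ± 0.08 and the calcineurin inhibitor Rcan1, which lies outside the segment, at 0.04 ± 0.08. Cardiac transcription factors were above 0 in 10 of 22 cases and epicardial genes in 8 of 14. The medians were -0.04 for smooth muscle, -0.08 for neural crest, 0.07 for skeletal muscle, 0.12 for megakaryocyte, 0.14 for liver and -0.05 for nuclear-retained non-coding RNAs, over 4 to 14 genes each. Of these 6 lists each changed sign in some settings. With lung marker level in the model the neural crest list was above 0 in 14 of 14 cases (median 0.52) and smooth muscle had a median of 0.15, and without the hearts with named defects the neural crest median was 0.17. Lung and foregut genes were below 0 in 12 of 15 cases, and Etv5, an ETS transcription factor, was at 0.39 ± 0.08.

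**Figure D5:**
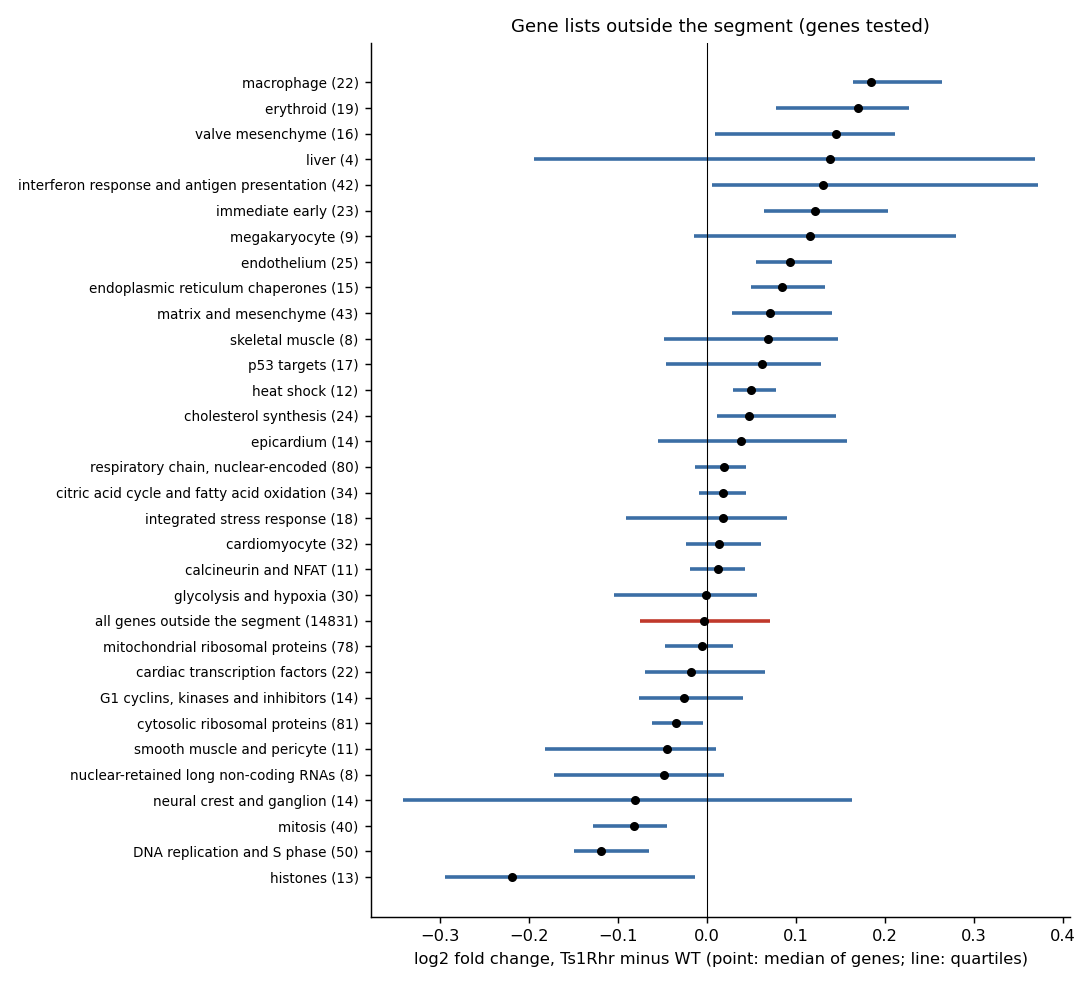
Median (point) and quartiles (line) of the log2 fold change, Ts1Rhr minus WT, of the tested genes of each list outside the segment, sorted, with the number of genes in brackets and all 14831 genes in red. Macrophage genes lie highest (median 0.18) and histone, DNA replication and mitosis genes lowest (-0.22, -0.12 and -0.08); the lung and foregut list (15 genes, median -1.58), which rests on the 2 Ts1Rhr hearts without such transcripts, is left off the axis.

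The Dp3Tyb hearts and their own littermates, which share no library with this comparison, were fitted the same way for the genes called outside the segment. In that cohort 45 of 14748 genes (0.305%) passed the test. This count includes genes of that strain's own duplication, among them Dyrk1a, C2cd2, Zbtb21 and Cbr1. All 9 genes had the same direction there, 6 passed the test (Rfx5, Rec8, Mxd4, Entpd1, Mal and Zfp268) and all 9 had an unadjusted p under 0.05, against 11.0% of all genes in that cohort. The log2 fold changes in Dp3Tyb were -0.44 ± 0.06 for Rfx5, -0.73 ± 0.10 for Rec8, 0.45 ± 0.07 for Entpd1, 1.17 ± 0.24 for Clec4g, 1.09 ± 0.12 for Mal and 0.58 ± 0.07 for Zfp268. In a model of all 20 libraries the change in Ts1Rhr minus the change in Dp3Tyb was between -0.21 ± 0.20 (Mal) and 0.09 ± 0.14 (Rec8) for the 9, and none of them passed the test of the difference, which 3 of 15333 genes did (0.0196%; limma). Ky, which missed the threshold in Ts1Rhr, was at -1.21 ± 0.16 in Dp3Tyb (limma, adjusted p = 0.0013), and the difference of 0.32 ± 0.26 did not pass either.

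Gene lists in Dp3Tyb are given side by side, with no test of a difference between lists. The replication list was below 0 in 49 of 50 cases in Dp3Tyb (median -0.14, 24 at an unadjusted p under 0.05) and the mitosis list in 40 of 40 (median -0.14, 33 at an unadjusted p under 0.05), where 5.72% of all genes were lower at that p. Macrophage genes were above 0 in 21 of 21 cases and matrix genes in 36 of 43. Other lists lay elsewhere in Dp3Tyb than in Ts1Rhr: of 13 histone genes 6 were below 0 there (median 0.03), of 12 heat shock genes 11 and of 23 immediate early genes 14, where in Ts1Rhr 10, 1 and 2 were. The respiratory chain was below 0 in 64 of 80 cases in Dp3Tyb, with a median of -0.05, and cardiomyocyte genes in 27 of 32. In Ts1Rhr these counts were 28 of 80 and 13 of 32 with the mitochondrial term alone, and 77 of 80 and 29 of 32 with lung marker level added. Lung and foregut genes were above 0 in 13 of 14 cases in Dp3Tyb (median 1.52) and neural crest genes in 13 of 13, whereas the lung and foregut list had a median of -1.58 in Ts1Rhr. The part of these other tissues in the Dp3Tyb values was not tested.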

How the data were processed

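RNA was extracted from single embryonic hearts and sequenced from poly(A)-selecting mRNA libraries. Per the labels the submitters' processing named Trimmomatic (0.36), STAR (2.5.2a), RSEM (1.2.31), DESeq2 and DESeq with the GRCm38 build, without roles or order; the use of strand is not given in the sources used here. The authors deposited 1 table of normalised signal for 20 libraries. Multiplied by the median-of-ratios size factor of its library, 100% of the values came out as whole reads (tolerance 1e-06), and these recovered reads were used for the tests on counts. A ± after a group mean is the SD over the hearts of that group. A ± after a log2 fold change or slope is the limma standard error, which includes the differences between hearts.

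The 10 libraries were grouped by genotype label. Values were tested as log2(value + 1) with limma (3.58.1, R 4.3.3; trended, robust prior, 2-sided) on genotype and the mitochondrial read share in percent, after a filter of at least 10 in at least 5 libraries and without the 37 mitochondrial genes, with Benjamini-Hochberg adjustment over all genes and a threshold of 0.05. The study tested genotype with DESeq2. A fold change on the log2(value + 1) scale understates that of low genes. edgeR (4.0.16) and DESeq2 (1.42.0) were run on the recovered reads as alternatives, beside other scalings, filters, pseudocounts, covariates and fits that leave out each library. Scripts were tested on simulated data. Symbols came from GENCODE vM39 for 44565 of the 48795 identifiers (91.3%), and the share of tested genes with a promoter follows matches by symbol.

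Named genes were those called outside the segment, the 10 largest differences there with an unadjusted p under 0.001, the genes of the segment, list members past the threshold or with the smallest p-values, the 5 smallest p-values in each direction for the mitochondrial share, and Dyrk1a and the D cyclins. The libraries, rules and 32 gene lists were chosen with earlier results of these data known. Libraries of a group differed by more than counting noise (mean chi-square per gene from 6.58 to 121 over 20 pairs). Embryos are separate, but litters are not given, so p-values measure the spread between these hearts. 1 member of the replication list is not reported here by itself.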

Additional observations from a re-analysis of the deposited data

Results flagged for a closer look

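In 3 of 80 groups of 5 examined, 1 heart lay far from the other 4 by Dixon's criterion, where chance flags about 1 in 20 groups. Entpd1 in Ts1Rhr was at 622 in replicate 1 and between 543 and 560 in the others (gap over range 0.780). Prg4 in Ts1Rhr was at 47.8 in replicate 2 and between 21.3 and 26.3 in the others (gap over range 0.810). Ets2 in WT was at 2153 in replicate 5 and between 1642 and 1671 in the others (gap over range 0.943).

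The change in Ts1Rhr minus the change in Dp3Tyb passed the test in 3 of 15333 genes (0.0196%; limma over 20 libraries): C2cd2 (-0.73 ± 0.09, adjusted p = 2.18e-04), Zbtb21 (-0.62 ± 0.09, adjusted p = 0.0049) and Cbr1 (-0.56 ± 0.09, adjusted p = 0.0126). The change in Ts1Rhr itself was 0.03 ± 0.06, -0.10 ± 0.07 and 0.08 ± 0.06, and that in Dp3Tyb was 0.76 ± 0.06, 0.52 ± 0.06 and 0.64 ± 0.06. The study places all 3 genes within the longer duplication and outside that of Ts1Rhr.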

How the results depend on the processing

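The 9 genes outside the segment kept their direction in every alternative that tested them (a filter at 50 leaves out Clec4g), and the count of all genes past the threshold there depended on the model. It was 0 without the mitochondrial term, 1 with a depth term in its place, 5 with sex added, 32 with array weights, 26 by DESeq2 with the term, 14 by DESeq2 on genotype alone, 0 by edgeR on genotype alone (added after seeing the data), 21 with all 20 libraries in 1 fit (7 of the 9 among them), 0 and 1 within the libraries under and over 10% mitochondrial reads (the 1 is not among the 9), and 0 without the hearts with named defects. Leaving out 1 library gave 1 to 10. With 10 other settings it was within 1.5 times of 9. Inside the segment the count of 16 became 4 without the term, 8 with depth alone, 4 by edgeR on genotype alone, 0 within either class of mitochondrial share and 4 without the hearts with named defects, and leaving out 1 library gave 12 to 16. The count for the mitochondrial share (5632) became 2582 with depth added, 9277 with all 20 libraries and 3477 without the hearts with named defects, and leaving out 1 library gave 4127 to 5595. The settings with fewer libraries have fewer degrees of freedom; the cause of the other shifts was not tested. The segment's median ran from 0.46 to 0.53 over all settings.

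The median of 22 of the 32 lists had the other sign in 1 or more of the 31 settings, among them cardiomyocyte (9 settings), respiratory chain (4), erythroid (3) and neural crest genes (12), and that of 10 lists, replication, mitosis, macrophage and matrix genes among them, kept its sign in all. Valve mesenchyme was -0.0047 over 10% mitochondrial reads, and lung and foregut epithelium was 0.026 with lung marker level in the model (added after seeing the data). The replication list stayed below 0 in 44 or more of its 50 genes in the alternatives in which lists were counted (no term, lung marker level, either class of mitochondrial share, no named defects, DESeq2 on genotype alone, length, all 20 libraries and each library left out). The standard error of a log2 fold change had a median of 0.09 with the mitochondrial term and 0.12 without it. No paired analysis was possible because the labels count the samples in 1 running series and give no replicate number, litter or batch that the groups share.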
